A study of Mus musculus with 4 samples.

Results

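The genes described here are 10 genes of bone morphogenetic protein (BMP) signalling: the ligand genes Bmp4 and Bmp7, and the response genes Id1, Id2, Id3, Id4, Msx1, Msx2, Smad6 and Bambi. They were taken by symbol from a table of 14382 genes, in which all 10 had a row. They had been proposed from the group mean levels of the same table, so their differences between the groups are given as a description with no test of their own. The cells were mouse embryonic stem cells (ESCs) of the genotype Arid1a f/f:CreERT2. In such cells Cre recombinase fused to a modified estrogen receptor cuts the floxed Arid1a alleles once 4-hydroxytamoxifen (4-OHT) binds it, and the comparison asks which transcripts differ once ARID1A, which belongs to the BAF family of nucleosome remodellers, is lost. Control libraries came from cells of the same genotype given ethanol, and the others from cells given 1 µM 4-OHT, with 2 libraries per group. The treatment lasted 24 hours, the cells were then passaged, and polyA RNA was collected 72 hours after treatment. All cells were kept with serum, serum replacement and leukemia inhibitory factor on irradiated embryonic fibroblasts. No library had 4-OHT without the floxed alleles, so an effect of 4-OHT itself and the loss of Arid1a cannot be told apart. The same holds for the library kit, since the labels name a pair of TruSeq kits without saying which library had which.

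BMPs are secreted dimers that bind type I and type II receptor kinases at the cell surface. The receptors phosphorylate SMAD1, SMAD5 and SMAD9, which enter the nucleus with SMAD4 and bind near their target genes. The Id genes are the best known immediate targets; their products lack a DNA binding region and hold back basic helix-loop-helix factors by pairing with them. In mouse ESCs grown with leukemia inhibitory factor, BMP signalling through Id genes is known to restrain neural differentiation. Smad6 and Bambi are targets that dampen the signal in return, and Msx1 and Msx2 encode homeobox repressors that follow BMP in many embryonic tissues.

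The promoter sequences available for these genes are shown first, because ligand and response genes differed in opposite directions. RefSeq windows on GRCm38.p6 (the mm10 build), from 250 bases before to 50 bases after the gene start, were searched for 7 of the 10 genes. No window of Id1, Bmp7 or Bambi was searched, so the shares below leave these genes out. The motif GGCGCC, a GC-rich element bound by BMP SMADs, was in the windows of Id2 and Id4, 2 of 7, against 20.8% of 14443 windows of tested genes. The E-box CACCTG was in the windows of Bmp4 and Msx1, 2 of 7, against 19.1%. CAGAC, the core of the SMAD box, was in that of Id3 alone, 1 of 7, against 47.7%. Both strands were searched, and no match overlapped a match of another motif. These are letter matches in short windows and say nothing of enhancers farther away. The 4 windows that follow are those with GGCGCC or CACCTG, kept to bases before the gene start and outside Gencode vM21 exons, and written 5′ to 3′ on the strand of the gene, with the motif in capitals (in Bmp4 the E-box reads on the opposite strand, as CAGGTG). The Id2 stretch lies in an intron of a longer Id2 transcript, the Id4 window in introns of a pair of antisense genes, and the other windows between genes.
Bmp4, chr14:46390670-46390919, minus strand: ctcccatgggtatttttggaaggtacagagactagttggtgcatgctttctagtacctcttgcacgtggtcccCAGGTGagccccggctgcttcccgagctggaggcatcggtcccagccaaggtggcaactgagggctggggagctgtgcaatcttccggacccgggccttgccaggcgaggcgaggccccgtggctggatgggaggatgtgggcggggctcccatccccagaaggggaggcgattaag
Msx1, chr5:37824586-37824835, minus strand: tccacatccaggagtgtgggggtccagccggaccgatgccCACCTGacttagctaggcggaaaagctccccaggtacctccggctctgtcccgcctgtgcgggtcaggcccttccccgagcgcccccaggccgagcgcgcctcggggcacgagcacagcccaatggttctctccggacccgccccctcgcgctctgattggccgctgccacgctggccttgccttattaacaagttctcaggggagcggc
Id2, chr12:25096263-25096342, minus strand: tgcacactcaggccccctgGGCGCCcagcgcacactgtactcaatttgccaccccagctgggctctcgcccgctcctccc
Id4, chr13:48260866-48261115, plus strand: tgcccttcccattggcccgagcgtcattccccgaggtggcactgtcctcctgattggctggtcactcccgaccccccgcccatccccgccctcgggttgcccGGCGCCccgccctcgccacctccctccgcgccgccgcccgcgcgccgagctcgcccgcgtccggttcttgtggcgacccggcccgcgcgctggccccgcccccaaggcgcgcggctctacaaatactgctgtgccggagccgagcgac

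Levels are given as CPM, the reads of a gene scaled to the effective size of its library. The deposited table held the mean CPM of each group, and the whole reads of its 2 libraries, called A and B here, were recovered from that mean. Recovered totals lay between 6027832 and 6823507 reads per library, and 1 read was worth 0.142 to 0.159 CPM. Whether replicates were separate cultures is not said in the labels, so a p-value here measures the spread between these libraries only, which may be technical. The gene to be deleted, Arid1a (ENSMUSG00000007880, chromosome 4, 133679008 to 133756769), stood at 517 and 502 CPM in ethanol and at 241 and 213 CPM with 4-OHT. It fell by 1.16 on the log2 scale (SE 0.066, limma adjusted p = 7.33e-06). Reads outside the floxed part may count in this value, and how complete the deletion was cannot be read from it. The 8 ESC markers, Pou5f1, Sox2 and Nanog among them, were all present, with summed levels of 3849 and 3739 CPM in ethanol and 3962 and 4134 CPM with 4-OHT. Of them, Nanog and Tdgf1 rose, Sox2 fell and 5 did not pass (limma, adjusted p under 0.05). Over all tested genes, limma called 5.25% higher and 4.20% lower.

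Transcripts of both ligand genes were lower with 4-OHT, Bmp4 2.55 times and Bmp7 2.70 times, while those of all 8 response genes were higher, from 1.27 times (Bambi) to 4.64 times (Msx1). In the fit over all genes (limma on log2(CPM + 1), Benjamini-Hochberg adjusted p under 0.05), 6 response genes were past the threshold upwards, against 5.25% of the 14373 tested genes, and 2 ligand genes downwards, against 4.20%. The edgeR test on the recovered reads gave the same counts, 6 and 2, against 8.13% and 7.64% of the 12958 genes it tested. Smad6 dropped out, leaving 5 and 2, in DESeq2, with a pseudocount of 0.1 CPM, and without ethanol replicate B in both limma and edgeR. Without 4-OHT replicate A or B, limma called 0 of the 10 genes, as it called 0 genes of the whole table, and edgeR 6 and 2. The libraries of the 2 groups did not overlap for any of the 10 genes, with 8 higher and 2 lower with 4-OHT, against 26.4% and 25.7% of all genes. As the 10 genes were chosen from this comparison, these counts describe the choice and are no support for it.

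**Figure D1:**
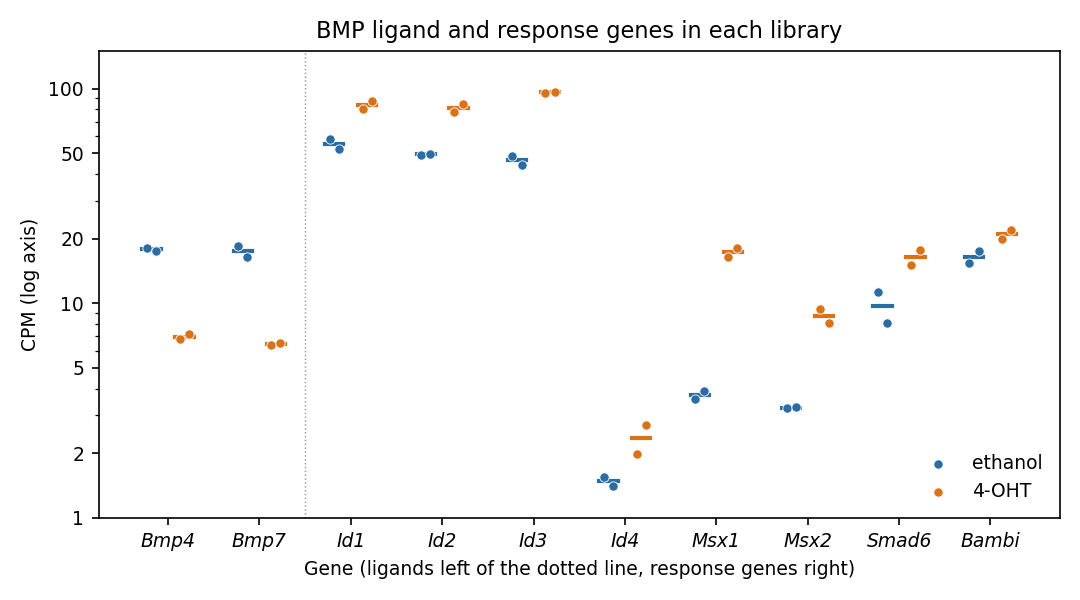
CPM (log axis) of the 2 ligand genes and 8 response genes in the 2 ethanol libraries (blue) and the 2 libraries with 4-OHT (orange); points are libraries and bars are group means. Bmp4 and Bmp7 lie at 16.4 CPM or more in ethanol and at 7.15 CPM or less with 4-OHT, and each response gene is higher with 4-OHT in every library.

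Bmp4, whose product signals in the epiblast and the extraembryonic ectoderm of the early embryo (ENSMUSG00000021835, chromosome 14, 46383525 to 46390669), stood at 18.1 and 17.5 CPM in the ethanol libraries and at 6.82 and 7.15 CPM with 4-OHT. The means were 17.8 ± 0.469 and 6.99 ± 0.233 CPM (SD, n = 2 each), a level 2.55 times lower. This came from 229 reads in ethanol and 93 with 4-OHT, with a 95% counting interval of 2.00 to 3.28 times lower (exact Clopper-Pearson, counting error only). Both 4-OHT libraries were low and both ethanol libraries high, with less than 1 CPM between libraries of a group. The annotation places Gm15222 inside Bmp4 and Gm15217 across its 3′ end, both on the opposite strand, and as the use of strand in the authors' counting is not given in the sources used here, their reads cannot be told apart from those of Bmp4.

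Bmp7 encodes a ligand of another BMP subgroup, which can pair with BMP4 (ENSMUSG00000008999, chromosome 2, 172868012 to 172940321). It stood at 18.4 and 16.4 CPM in ethanol and at 6.40 and 6.52 CPM with 4-OHT. The means of 17.4 ± 1.46 and 6.46 ± 0.0853 CPM (SD, n = 2 each) gave a level 2.70 times lower, with a counting interval of 2.10 to 3.502 times lower. The log2 differences of Bmp7 (-1.30) and Bmp4 (-1.24) had ranks 12 and 23 from the lowest among the 14373 tested genes. The sum of both ligand genes was 36.6 and 33.9 CPM in ethanol and 13.2 and 13.7 CPM with 4-OHT. In bulk libraries such as these, fewer cells that express a gene and less RNA per cell cannot be told apart.

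The 4 Id genes encode the inhibitors of basic helix-loop-helix factors. Id1 (ENSMUSG00000042745, chromosome 2, 152736251 to 152737410) stood at 58.3 and 52.1 CPM in ethanol and at 80.02 and 87.4 CPM with 4-OHT. Its mean with 4-OHT was 1.52 times that in ethanol (counting interval 1.38 to 1.66). The gap between the groups was wider than that between libraries of either group. Id2 (ENSMUSG00000020644, chromosome 12, 25093799 to 25096092) stood at 49.0 and 49.8 CPM in ethanol and at 77.9 and 85.0 CPM with 4-OHT, 1.65 times higher (1.49 to 1.82). Id3 (ENSMUSG00000007872, chromosome 4, 136143822 to 136145392) stood at 48.5 and 44.1 CPM in ethanol and at 95.7 and 96.3 CPM with 4-OHT, 2.07 times higher (1.88 to 2.29). Of these 3 Id genes, Id3 had the highest ratio. Its counting interval did not overlap those of Id1 and Id2, but these intervals leave out the spread between libraries. Whether the ratios differ was not tested.

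Id4, which is best known from neural tissue (ENSMUSG00000021379, chromosome 13, 48261116 to 48266028), was near the limit of these libraries. It had 10 and 9 reads in ethanol and 14 and 17 reads with 4-OHT, or 1.55 and 1.40 against 1.99 and 2.70 CPM. The ratio of 1.59 had a counting interval of 0.862 to 2.95, so no difference was detectable at this depth. A330033J07Rik and Gm49291 are annotated on the opposite strand across its 5′ end, and their reads cannot be separated from its own. Id1 to Id4 together made up 157 and 147 CPM in ethanol and 256 and 271 CPM with 4-OHT. Within this sum the share of Id3 was 30.8% and 29.9% in ethanol and 37.4% and 35.5% with 4-OHT, and that of Id1 37.0% and 35.3% against 31.3% and 32.2%. For each CPM of both ligand genes there were 4.30 and 4.35 CPM of Id transcripts in ethanol and 19.3 and 19.9 with 4-OHT.

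Msx1, a homeobox gene of the neural folds, limb buds and craniofacial mesenchyme (ENSMUSG00000048450, chromosome 5, 37820491 to 37824585), showed the highest ratio of the 10 genes. It stood at 3.56 and 3.90 CPM in ethanol and at 16.5 and 18.1 CPM with 4-OHT, with 48 reads against 230 reads. The ratio of mean CPM was 4.64 (counting interval 3.38 to 6.45), and its log2 difference of 1.95 had rank 11 from the highest among all tested genes. Msx2, its close relative (ENSMUSG00000021469, chromosome 13, 53466881 to 53472780), stood at 3.25 and 3.28 CPM in ethanol and at 9.38 and 8.11 CPM with 4-OHT. Its ratio of 2.68 (1.87 to 3.92) came from 42 reads against 117 reads. Both Msx genes thus moved from under 4 CPM in each ethanol library to over 8 CPM in each 4-OHT library. Msx3, the remaining mouse family member, had 9 reads in ethanol and 15 with 4-OHT and did not pass (limma adjusted p = 0.434).

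Smad6 encodes an inhibitory SMAD that blocks BMP receptors and receptor SMADs (ENSMUSG00000036867, chromosome 9, 63953076 to 64022085). It stood at 11.3 and 8.11 CPM in ethanol and at 15.1 and 17.6 CPM with 4-OHT. The ratio was 1.68 (counting interval 1.34 to 2.10), with ethanol libraries further apart than for any other of the 10 genes relative to their mean. Without ethanol replicate A its log2 difference was 0.93, and without ethanol replicate B it was 0.49. Bambi (ENSMUSG00000024232), which encodes a receptor-like protein without a kinase, stood at 15.3 and 17.5 CPM in ethanol and at 19.9 and 21.9 CPM with 4-OHT. Its ratio of 1.27 (1.06 to 1.53) was the closest to 1 of the 10, and like Id4 it was not past the threshold of the fit.

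Levels of different genes were compared per kilobase of exon (union of Gencode vM21 exons). In ethanol Id1 was highest at 47.6 ± 3.76 CPM per kb (SD, n = 2), followed by Id3 at 25.9 ± 1.72, Id2 at 20.3 ± 0.228, Bmp4 at 7.92 ± 0.208 and Bmp7 at 4.33 ± 0.363. Bambi at 3.23 ± 0.296 and Smad6 at 3.03 ± 0.707 overlapped between libraries, and Msx1 at 1.21 ± 0.0765, Msx2 at 0.996 ± 0.0045 and Id4 at 0.384 ± 0.0268 closed the order. With 4-OHT the first 3 kept their places, at 72.2 ± 4.51 for Id1, 53.6 ± 0.262 for Id3 and 33.4 ± 2.07 for Id2. Msx1 (5.59 ± 0.373) then came before Smad6 (5.10 ± 0.568) with overlapping ranges, and Bambi (4.12 ± 0.284), Bmp4 (3.11 ± 0.104), Msx2 (2.67 ± 0.275), Bmp7 (1.61 ± 0.0212) and Id4 (0.610 ± 0.131) followed. Bmp4 and Bmp7 went from places 4 and 5 to places 7 and 9, and Msx1 from place 8 to place 4.

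**Figure D2:**
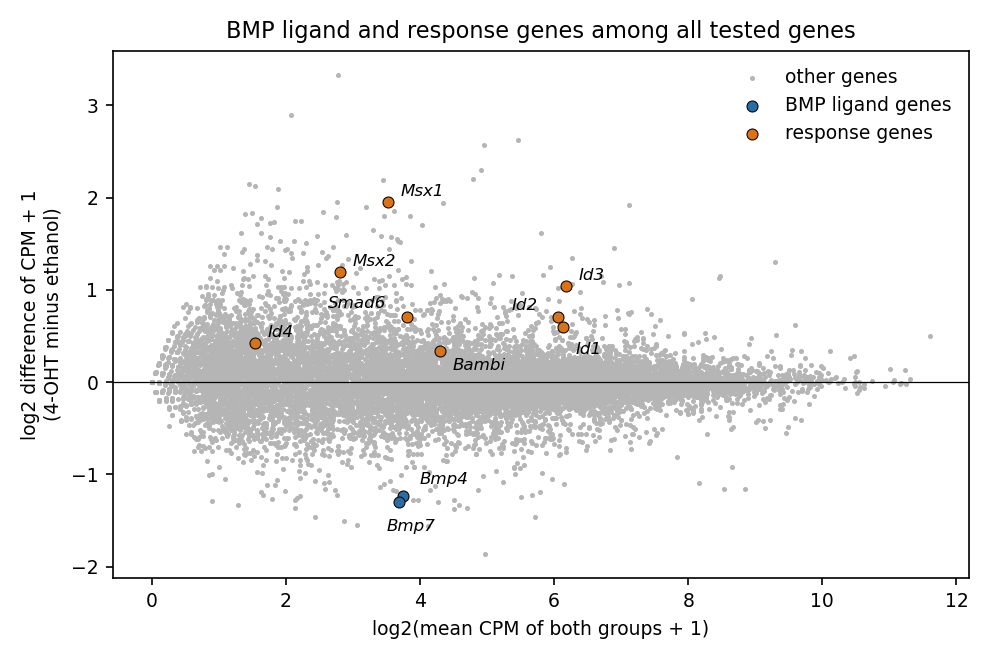
Vertical axis, difference between the groups in log2(CPM + 1), positive where 4-OHT is higher; horizontal axis, log2(mean CPM of both groups + 1), for the 14373 tested genes (grey), with the 2 ligand genes in blue and the 8 response genes in orange. Bmp7 (-1.30) and Bmp4 (-1.24) lie next to each other near the lower edge of the cloud, Msx1 (1.95) lies at its upper edge, and Id4 and Bambi lie within it.

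The rest of the pathway was described from 7 lists of 76 genes, of which 56 were measured and the other 20 were not analysed here. Of the 56, 3 rose, 4 fell and 49 did not pass (limma, adjusted over all genes tested), a called share of 12.5% against 9.45% of all genes. Their median log2 difference was 0.03, against -0.0015 over all genes. At an unadjusted p under 0.05, 6 of the 56 were higher and 9 lower. Over all 14373 tested genes, 3441 had an unadjusted p under 0.05 in limma. Without 4-OHT replicate A or B the limma calls of the lists were lost, as were those of the whole table. With 1 library left in the 4-OHT group, each gene's own spread comes from the ethanol pair alone. The cause of the loss was not tested. List genes called in the main fit all kept their direction in these fits, and the quasi-likelihood test of edgeR still called some genes of the lists.

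Among secreted antagonists and binding proteins, 3 of 11 measured genes rose, 1 fell and 7 did not pass (median log2 difference 0.09). Nog, which encodes the antagonist noggin, had 1.24 and 2.18 CPM in ethanol and 4.12 and 4.29 CPM with 4-OHT (log2 difference 0.96, SE 0.23, adjusted p = 0.0259, limma). Chrdl1, which encodes a chordin-like antagonist, had 1.08 and 0.936 CPM against 3.70 and 3.97 CPM (1.27, SE 0.20, adjusted p = 0.00358, limma). Sost, which encodes sclerostin, an antagonist better known for blocking WNT co-receptors, had 0 and 2 reads in ethanol and 11 and 11 reads with 4-OHT (adjusted p = 0.00848, limma); the ratio of 10.6 had a counting interval of 2.61 to 93.1. All 3 were low in every ethanol library and higher in both 4-OHT libraries. Fstl1, which encodes a follistatin-like glycoprotein, fell from 372 and 369 CPM to 250 and 252 CPM (fell by 0.56 on the log2 scale, SE 0.053, adjusted p = 0.0002, limma). Chrd, which encodes chordin, did not pass (4.98 CPM in ethanol, 3.84 CPM with 4-OHT; limma adjusted p = 0.438). With DESeq2, Nog, Chrdl1 and Sost did not pass (adjusted p of 0.282, 0.0755 and 0.164), and Nog did not pass without ethanol replicate A (limma adjusted p = 0.121) or with a pseudocount of 0.1 CPM (0.0558).

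Of 12 receptor and co-receptor genes, 0 rose, 1 fell and 11 did not pass (median -0.09; 0 higher and 2 lower at an unadjusted p under 0.05, and 0 and 2 in edgeR, in both cases Eng and Rgmb). Bmpr1a, a type I receptor gene, averaged 155 CPM with ethanol and 152 CPM with 4-OHT (log2 difference -0.03, SE 0.062, adjusted p = 0.799, limma). The type I receptor genes Acvr1 (16.2 and 19.9 CPM) and Bmpr1b (1.94 and 1.27 CPM) did not pass. Neither did the type II receptor genes Bmpr2 (27.9 and 32.0 CPM), Acvr2a (27.1 and 23.3 CPM) and Acvr2b (120.3 and 132 CPM). Eng, which encodes the co-receptor endoglin, fell from 71.0 and 59.4 CPM to 50.7 and 47.2 CPM (adjusted p = 0.0277, limma). That call was lost without ethanol replicate A (adjusted p = 0.160) and in DESeq2 (0.0717). Rgmb, which encodes a repulsive guidance molecule that acts as a BMP co-receptor, was called lower by edgeR alone (14.3 against 10.1 CPM, edgeR adjusted p = 0.0273, limma adjusted p = 0.0797).

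Of 14 genes of SMADs and intracellular regulators, 0 rose, Ski fell and 13 did not pass (median 0.03; Tob1 and Smurf2 higher and Ski and Zfp423 lower at an unadjusted p under 0.05). The SMAD genes that carry the signal did not pass: group means, ethanol first, were 32.9 and 28.5 CPM for Smad1, 69.8 and 64.6 CPM for Smad5, and 132 and 137 CPM for Smad4. Smad9 had 5 reads in ethanol and 6 with 4-OHT, too few for a statement. Smad7, the inhibitory SMAD gene related to Smad6, was at 71.0 ± 1.33 and 78.7 ± 0.0466 CPM (SD, n = 2 each; log2 difference 0.15, SE 0.068, limma adjusted p = 0.225). Whether Smad6 and Smad7 differed in response was not tested. Ski, which encodes a corepressor of SMAD complexes, fell from 282 and 278 CPM to 240 and 228 CPM (adjusted p = 0.0164, limma), and this was lost without ethanol replicate A (adjusted p = 0.0976) or B (0.0674). The edgeR test alone called Tob1, an antiproliferative gene whose product binds SMADs, higher (17.6 and 24.5 CPM, edgeR adjusted p = 0.0062) and Zfp423, a zinc finger cofactor gene of SMADs, lower (130 and 112 CPM, edgeR adjusted p = 0.0291).

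Of 6 genes of ligand-processing proteases, 0 rose, Pcsk6 fell and 5 did not pass (median -0.11; 0 higher and 1 lower at an unadjusted p under 0.05 and in edgeR). Pcsk6, which encodes a proprotein convertase that cuts precursors of this ligand family, fell from 63.2 and 57.9 CPM to 38.0 and 39.1 CPM, a level 1.57 times lower (fell by 0.64 on the log2 scale, SE 0.084, adjusted p = 0.00124, limma). Furin, which encodes a related convertase, did not pass (group means of 32.2 and 30.7 CPM). The other BMP-type ligand genes measured were Bmp6 (1.87 CPM with ethanol, 1.56 CPM with 4-OHT), Bmp8a (2.88 and 1.67 CPM) and Bmp8b (13.7 and 14.9 CPM). None of these 3 passed in limma or edgeR (median -0.17; 0 higher and 1, Bmp8a, lower at an unadjusted p under 0.05).

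Of 7 measured further transcription factor genes that respond to BMP in other tissues, 0 passed in limma (median 0.05; Hand1 higher and Gata2 and Gata3 lower at an unadjusted p under 0.05). The edgeR test, which kept 4 of them, called 0 higher and 2 lower. These were Gata2 (group means of 5.75 and 3.39 CPM, edgeR adjusted p = 0.0406, limma 0.0696) and Gata3 (6.61 and 4.00 CPM, edgeR adjusted p = 0.0357, limma 0.0845), which encode zinc finger factors of trophoblast and blood. Hand1 had 5 reads in ethanol and 17 with 4-OHT and did not pass in limma (adjusted p = 0.0669). The E protein genes Tcf3, Tcf4 and Tcf12, whose products are the partners that ID proteins bind, had group means, ethanol first, of 287 and 265 CPM, of 44.9 and 43.01 CPM, and of 84.1 and 87.5 CPM. None of the 3 passed in limma or edgeR, and 0 had an unadjusted p under 0.05 (median -0.06).

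**Figure D3:**
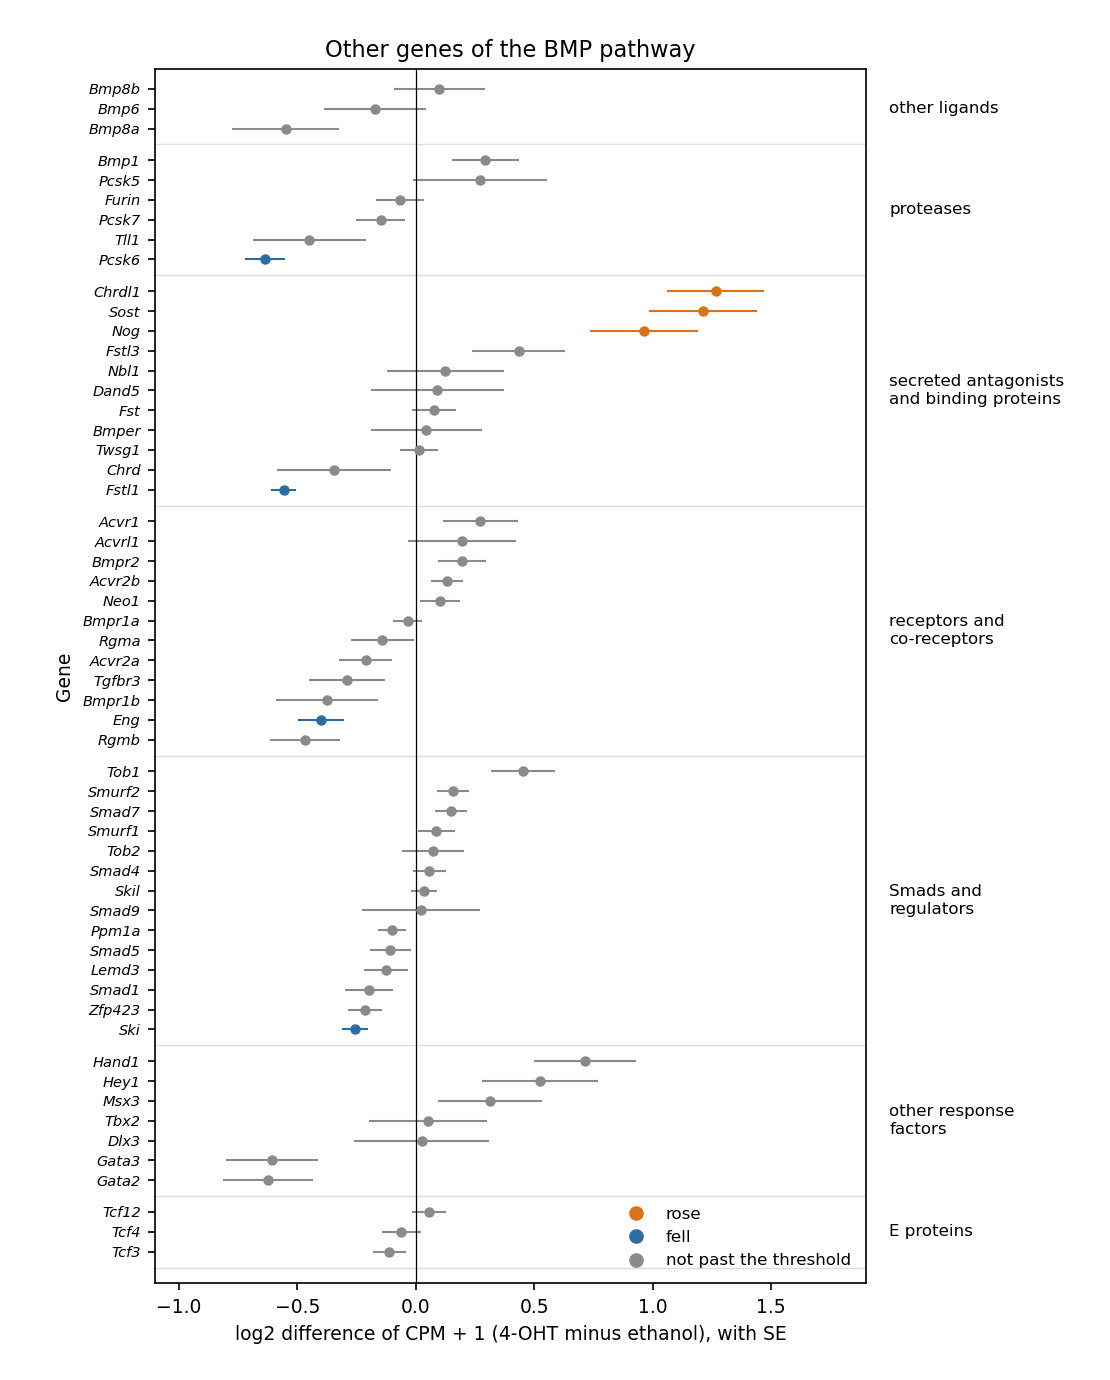
Points give the difference between the groups in log2(CPM + 1), positive where 4-OHT is higher, and bars its SE, for each of the 56 measured genes of the 7 pathway lists; orange genes rose, blue genes fell and grey genes did not pass the threshold. The 3 rises (Chrdl1, Sost, Nog) are all among the secreted antagonists, and the 4 falls (Pcsk6, Fstl1, Eng, Ski) are spread over 4 lists.

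Markers of cells other than ESCs in these dishes were read beside these results, because BMP and Msx genes are also expressed there. Over all tested genes, limma called 5.25% higher and 4.20% lower, and edgeR 8.13% and 7.64%. An unadjusted p under 0.05 was found for 3441 of 14373 genes in limma. Of 16 fibroblast markers 11 were measured; 2 rose (Col1a2 and Thy1), 0 fell and 9 did not pass (Col6a1 also higher at an unadjusted p under 0.05; 2 higher and 0 lower in edgeR). Their summed level was 142 and 135 CPM in ethanol and 173 and 165 CPM with 4-OHT, and no measured marker was at 0. Group means, ethanol first, were 20.8 and 45.0 CPM for Col1a2 and 47.2 and 48.3 CPM for Col1a1. Col3a1, Col5a1, Loxl1 and S100a4 had lower means with 4-OHT and did not pass. Of 13 markers of neural crest and dorsal neural tube 9 were measured; Pax3, Zic1 and Tfap2a rose, 0 fell and 6 did not pass (3 higher and 0 lower at an unadjusted p under 0.05 and in edgeR). The summed level of these 9 was 38.6 and 38.5 CPM in ethanol and 51.0 and 56.9 CPM with 4-OHT, and none was at 0. Pax3 had 5 reads in ethanol and 47 with 4-OHT, Zic1 13 and 77, and Tfap2a 41 and 120. Of 8 trophoblast markers 7 were measured; Cdx2 rose, Plet1 fell and 5 did not pass, with sums of 178 and 161 CPM against 169 and 170 CPM. The part of these cell types in the levels of the ligand and response genes was not tested.

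The nearest tested gene on each side of each of the 10 genes was also read, since these neighbours had no part in the choice. Of these 20 genes 0 rose, 1 fell and 19 did not pass (limma; 0 higher and 2 lower at an unadjusted p under 0.05, Sfxn1 and Map3k8; 0 and 1 in edgeR), against 9.45% of all genes called in either direction. Their log2 differences lay between -0.53 (Map3k8, 19 reads in ethanol and 10 with 4-OHT) and 0.47 (Cox4i2, 4 and 11 reads), with a median of -0.10. Over all 14373 tested genes, 3441 had an unadjusted p under 0.05 in limma. The gene that fell was Sfxn1, a mitochondrial serine transporter gene 599 kb from Msx2, from 127 and 139 CPM to 112 and 109 CPM (fell by 0.26 on the log2 scale, adjusted p = 0.0384, limma). Rae1, 59.8 kb from Bmp7, and H13 and Cox4i2, 27.6 and 16.5 kb from Id1, did not pass. Around Bmp4 the nearest tested genes were 299 kb (Ubb-ps) and 370 kb (Cdkn3) away, with log2 differences of -0.21 and -0.27 and adjusted p of 0.340 and 0.354 (limma).

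**Figure D4:**
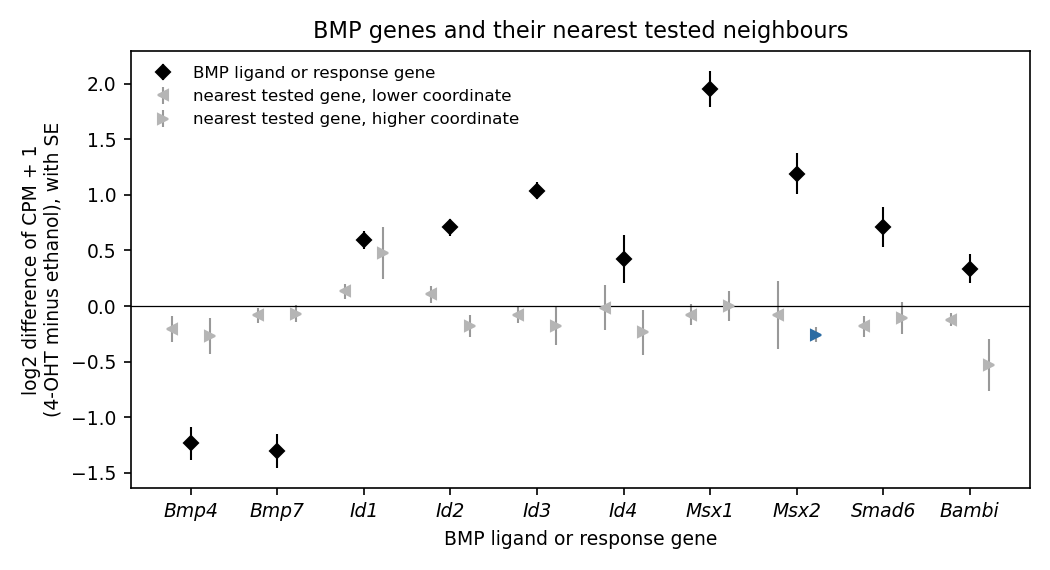
Log2 difference of CPM + 1 (4-OHT minus ethanol) with its SE for each of the 10 genes (black diamonds) and the nearest tested gene on either side (triangles; grey did not pass, blue fell). Bmp4 and Bmp7 lie below -1.2, while the 20 neighbours lie between -0.53 and 0.47 and only Sfxn1 passed.

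The genes whose profile over the 4 libraries was most like that of each ligand gene were taken from 10135 genes whose mean log2 CPM reached 3, by the Euclidean distance of centred log2(CPM + 1). Rab11fip5, which encodes a Rab11 effector of recycling endosomes, was closest to both Bmp4 (distance 0.0529) and Bmp7 (0.0670). It stood at 32.1 and 30.4 CPM in ethanol and at 12.2 and 12.4 CPM with 4-OHT. Sp5, a WNT target gene, was next to Bmp4 (0.0971) and the third for Bmp7 (0.159), at 40.9 and 37.8 against 16.1 and 17.8 CPM. Hspb8, a small heat shock protein gene, was the third for Bmp4 (0.115), and Dsc2, a desmosomal cadherin gene, the next for Bmp7 (0.149). With 2 conditions, such likeness says only that the size of the difference and the spread were close.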

How the data were processed

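The table held 14382 genes with the mean CPM of each group (2 libraries), which the authors deposited per the file headers. FastQC, Trimmomatic, HISAT2 and edgeR on mm10 were used, per the submitters' processing notes, which give no versions; how reads were counted, on which annotation and whether by strand, is not given in the sources used here. Not used were the authors' deposited log2 fold change and adjusted p-value columns: sorted by Entrez number as text, the rows gave an adjusted p-value that fell at 0 of 14381 steps, and the fold change correlated with the ratio of the means at a Spearman rho of 0.018, so both are out of register with the genes.

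A deposited mean CPM adds up whole reads of 2 libraries, with 1 read worth a fixed amount in each. These amounts were fitted on the low values; 100% of values in each column then came out whole within the printed digits, with a single possible pair of read numbers for 99.74% (ethanol) and 99.9% (4-OHT) of genes. Where several pairs were possible, the one with libraries less than 2-fold apart was taken, and 9 stayed unsettled and were left out, leaving 14373 (18 with 0 reads in all libraries). A and B carry no replicate number. A library with 0 reads allows up to 0.426 to 0.477 CPM (3 reads). No molecular identifiers are named, so reads need not be independent molecules, and floors and intervals cover counting error only.

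The test was limma-trend 3.58.1 (R 4.3.3) on log2(CPM + 1), two-sided, Benjamini-Hochberg over all tested genes, threshold 0.05, no filter; differences on this scale understate changes of low genes. As the table held group means, the planned branch for recovered library values was used. Alternatives were DESeq2 1.42.0 size factors and test, edgeR 4.0.16 quasi-likelihood on recovered reads, a pseudocount of 0.1, a minimum mean log2 CPM of 1, and leaving out each library; leaving out libraries in edgeR was added after seeing the data. The scripts were tested on simulated data. The 10 genes and all lists were chosen with earlier results of these data known. Pathway genes were named if past the threshold in limma or edgeR, or if they encode BMP receptors, SMADs, noggin or chordin; Msx3, Hand1, Smurf2, Furin, Bmp6, Bmp8a, Bmp8b, the E protein genes, the markers and the neighbours were named beyond this rule, after their values were seen. Coordinates are RefSeq GRCm38.p6, 1-based.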

Additional observations from a re-analysis of the deposited data

How the results depend on the processing

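All 10 genes kept their direction under every setting run for them (10 settings each, 9 for Id4, which the minimum level removed). The mean log2 difference of the 2 ligand genes was -1.27 and became -1.38 with a pseudocount of 0.1, -1.39 in edgeR and -1.39 in DESeq2. The median of the 8 response genes was 0.71, and 0.62 to 0.81 when each library was left out. Counts of calls moved more. Over all genes limma called 754 higher and 604 lower, DESeq2 382 and 318, edgeR 1053 and 990, and a minimum mean log2 CPM of 1 gave 1003 and 964. Of the pathway lists limma called 3 higher and 4 lower; DESeq2 called 0 higher (4 at an unadjusted p under 0.05), and edgeR and the minimum level each called 8 lower. Leaving out each library in turn gave 0 to 626 higher and 0 to 460 lower calls over all genes in limma, and 0 to 3 higher and 0 to 3 lower in the lists; the counts of 0 were without 4-OHT replicate A or B, where edgeR called 812 and 946 higher and 774 and 823 lower. In edgeR the ranges were 662 to 946 higher and 579 to 823 lower over all genes, and 1 to 5 higher and 2 to 6 lower in the lists. The cause of these shifts was not tested. A setting that leaves a group with 1 library assumes that it varies like the other group. No paired analysis was possible because the deposited columns are group means, and the recovered libraries carry no replicate number. Depth limits Id4, Smad9, Sost, Msx3, Hand1, Bmp6, S100a4, Cox4i2 and Map3k8. Each had under 25 reads in either group, except Id4 with 31 with 4-OHT.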
